A study of Mus musculus with 6 samples.

Results

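The genes of respiratory complexes III and IV, cytochrome c and ATP synthase were examined in the ventromedial hypothalamus of mice with and without a deletion of Sirt1 in neurons that express SF1. The genes were taken by platform symbol: any symbol that starts with Uqcr, with Cox followed by a digit from 4 to 8, or with Atp5, together with Cyc1 and Cycs. This gave 64 of the 45281 probes on the array and 41 of the 19057 gene symbols. Of the 41 genes, 36 had a probe detected on at least 3 of the 6 arrays (a detection p-value under 0.05), and these 36 were among the 14221 features tested. Subunits such as Uqcrb, Cox7c, Cox8a and Atp5g1 are not analysed here. The 3 control pools came from mice with a loxP-flanked Sirt1 allele on both chromosomes (Sirt1loxP/loxP). The 3 SIRT1 deletion pools came from mice that carried Sf1-Cre as well (Sf1-Cre; Sirt1loxP/loxP). All were on a mixed genetic background and aged 16 weeks. Both groups carry the floxed allele, and no pools with Sf1-Cre alone were analysed here. Each array was hybridised with RNA from a pool of mice, and Cre acts only in the SF1 lineage, so the other cells of the tissue keep their Sirt1 gene. Nothing in the labels says that the pools hold separate mice, and the p-values therefore describe only how these arrays vary, which may be technical in part.

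Complex III (ubiquinol-cytochrome c reductase) takes electrons from ubiquinol and passes them to cytochrome c, a small soluble carrier. Complex IV (cytochrome c oxidase) hands them on to oxygen. The proton gradient that both build drives ATP synthase, whose F1 head makes ATP on a rotor of c subunits in the membrane. Neurons draw most of their ATP from this chain, and its nuclear genes are active in nearly every cell. SIRT1, a NAD-dependent deacetylase, is known to deacetylate PGC-1alpha, a coactivator of nuclear-encoded respiratory genes, so the comparison shows whether their transcripts differed in this tissue.

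Between 20053 and 20611 probes were detected per array. The median deposited signal lay between 145.5 and 149.4 in control and between 140.4 and 142.1 in SIRT1 deletion pools. The position of the Sirt1 probe with respect to the loxP sites is unknown here. It had log2 intensities of 7.81, 7.62 and 7.64 in control 1 to 3 and of 7.77, 7.68 and 7.51 in SIRT1 deletion 1 to 3, and it checks neither the deletion nor the labels. On the first principal component of all features, with 34.2% of the variance, SIRT1 deletion 2 and 3 (16.0 and 15.1) stood apart from the other 4 pools (-14.9 to -3.44). All 9 marker genes of the ventromedial nucleus and its neurons were measured, and 7 of them were lower in SIRT1 deletion pools. Their median log2 fold change (SIRT1 deletion over control) was -0.09. The mean log2 intensity of these 9 was 9.67 to 9.72 in control and 9.70, 9.60 and 9.59 in SIRT1 deletion 1 to 3. Nr5a1, the marker that encodes SF1, went the other way. It had 5.11, 4.90 and 5.13 in control and 5.30, 5.72 and 5.46 in SIRT1 deletion pools, which did not overlap. Its log2 fold change was 0.45 (95% interval 0.16 to 0.73, limma adjusted p = 0.427), and its probe was dim. The median was -0.46 for meninges, -0.15 for microglia, -0.11 for endothelium and -0.08 for choroid plexus markers. It was 0.14 for oligodendrocyte, 0.03 for astrocyte and -0.0082 for neuron markers. The 5 measured meninges genes had mean log2 intensities of 5.96, 6.86 and 6.56 in control and 6.04, 6.33 and 5.85 in SIRT1 deletion pools. These groups overlapped, and 0 of the 5 passed an adjusted p of 0.05 in limma. The mean log2 intensity of 10 exocrine pancreas genes was 7.04 to 7.26 in control and 5.86 to 6.23 in SIRT1 deletion pools. All 10 were lower, with a median log2 fold change of -1.09. Of these, 5 had an adjusted p under 0.05 in limma and so were among the 15 features that passed. The part of these marker differences in the values below was not tested.

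No gene of complex III, complex IV or ATP synthase differed between the groups at an adjusted p under 0.05 (limma, Benjamini-Hochberg over 14221 features). Their lowest adjusted p was 0.543. Across all features 0.105% passed that threshold, 0.0563% higher and 0.0492% lower in SIRT1 deletion pools. The unadjusted p was under 0.05 for 2 of the 36 genes, Uqcrh and Atp5e, both higher in SIRT1 deletion pools, or 5.56% against 8.82% of all features (4.61% higher and 4.21% lower). The median log2 fold change (SIRT1 deletion over control) of the 36 genes was 0.02, with values from -0.18 to 0.31, and that of all features was -0.0046. Values were higher in SIRT1 deletion pools for 21 genes and lower for 15, or for 16 and 20 when arrays were scaled by their median. Because the tissue was measured in bulk, fewer cells of a type and less RNA per cell cannot be told apart.

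The precision of these pools can be read from the 95% interval of the log2 fold change (limma), which stayed within a 1.5-fold change in either direction for 35 of the 36 genes (97.2%, against 90.5% of all features). The exception was Atp5e, whose upper limit was 0.60. These shares are not matched for brightness. At a mean log2 intensity of at least 10, the interval stayed within 1.5-fold for all 25 of these genes and for 98.2% of all features. For the 11 dimmer genes the share was 90.9%. In the values below, limits are those of this interval. The median within-group SD was 0.106 for these genes and 0.130 for all features, on the log2 scale. The 25 genes with a mean log2 intensity of at least 10 had a median SD of 0.086, close to the 0.087 of all 2273 features of that brightness. The remaining 11, which are dimmer, had 0.178.

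**Figure D1:**
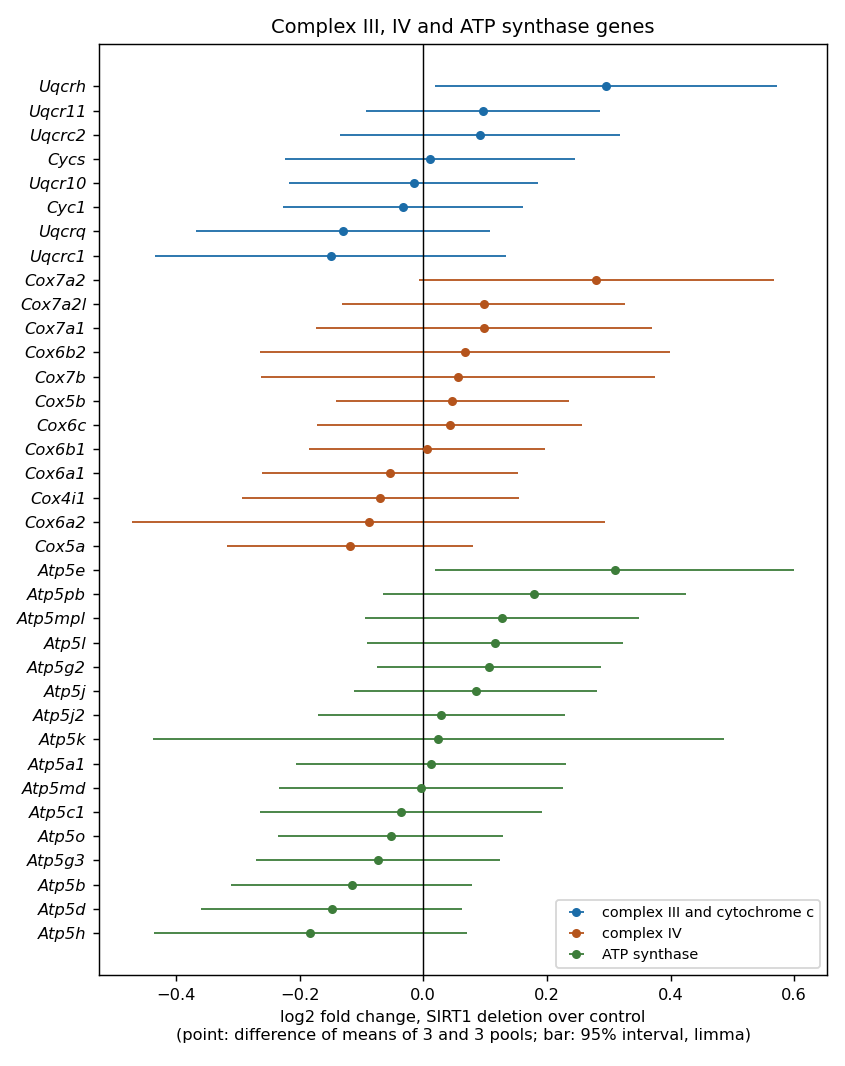
Log2 fold change of each of the 36 measured genes (x axis, SIRT1 deletion over control, difference of the means of 3 and 3 pools) with its 95% interval from limma, ordered by size within complex III with cytochrome c, complex IV and ATP synthase. The points lie between -0.18 and 0.31, and only the intervals of Uqcrh and Atp5e leave out 0.

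The groups did not overlap for 7 of the 36 genes (19.4%, against 14.3% of all features). All 3 SIRT1 deletion pools lay above all 3 control pools for 6 of them, Uqcrh, Uqcr11, Cox7a2, Atp5e, Atp5g2 and Atp5mpl, which 7.04% of all features did. They lay below for 1, Atp5o, which 7.21% of all features did. For each of these the exact two-sided permutation test over pools gave p = 0.1, the smallest that 3 against 3 pools allow. Groups that do not overlap always give this value, so it adds nothing to the count.

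Promoter sequence is shown for the 3 genes with the lowest p (Uqcrh, Atp5e and Cox7a2), for Atp5h, which had the lowest p among the genes with lower values, and for Atp5g2 and Cox6a1, which hold the full palindrome of nuclear respiratory factor 1. The factor, NRF1, is known to activate many respiratory genes, as are the ETS factor GABP (also called NRF-2) and YY1. The sequences are the 250 bases before the annotated start, 5′ to 3′ on the strand of the gene, from RefSeq on GRCm38.p6. They lie at chr4:116075071-116075320 for Uqcrh, chr2:174464102-174464351 for Atp5e, chr9:79759854-79760103 for Cox7a2, chr11:115419920-115420169 for Atp5h, chr15:102671048-102671297 for Atp5g2 and chr5:115348959-115349208 for Cox6a1, all on the minus strand. Capitals mark matches on either strand to NRF1 (GCGC, any 2 bases, GCGC, with AT as those bases in the full palindrome), ETS (CCGGAAG) and YY1 (AAGATGG) letters.
Uqcrh: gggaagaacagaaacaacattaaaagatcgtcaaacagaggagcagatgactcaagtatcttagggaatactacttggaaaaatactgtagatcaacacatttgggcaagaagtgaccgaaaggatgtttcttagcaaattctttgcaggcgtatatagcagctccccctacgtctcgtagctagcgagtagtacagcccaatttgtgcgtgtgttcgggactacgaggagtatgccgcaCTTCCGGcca
Atp5e: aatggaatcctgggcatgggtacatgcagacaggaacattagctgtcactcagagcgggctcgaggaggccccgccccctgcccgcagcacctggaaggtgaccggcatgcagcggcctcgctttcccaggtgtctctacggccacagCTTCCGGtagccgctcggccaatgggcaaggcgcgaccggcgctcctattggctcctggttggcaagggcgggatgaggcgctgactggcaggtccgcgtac
Cox7a2: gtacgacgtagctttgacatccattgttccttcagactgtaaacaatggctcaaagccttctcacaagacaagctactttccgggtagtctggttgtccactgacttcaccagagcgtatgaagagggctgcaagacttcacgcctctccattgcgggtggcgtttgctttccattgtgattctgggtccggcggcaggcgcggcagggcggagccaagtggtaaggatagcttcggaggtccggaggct
Atp5h: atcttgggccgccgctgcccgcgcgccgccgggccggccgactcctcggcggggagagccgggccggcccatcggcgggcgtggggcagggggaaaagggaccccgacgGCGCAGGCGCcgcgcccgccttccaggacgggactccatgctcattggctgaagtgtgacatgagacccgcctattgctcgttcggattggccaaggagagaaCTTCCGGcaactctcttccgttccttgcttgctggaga
Atp5g2: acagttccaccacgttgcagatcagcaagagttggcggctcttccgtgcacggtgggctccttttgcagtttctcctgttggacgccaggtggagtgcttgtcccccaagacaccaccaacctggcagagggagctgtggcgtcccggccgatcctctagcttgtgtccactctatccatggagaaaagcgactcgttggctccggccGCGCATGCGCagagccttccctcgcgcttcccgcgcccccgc
Cox6a1: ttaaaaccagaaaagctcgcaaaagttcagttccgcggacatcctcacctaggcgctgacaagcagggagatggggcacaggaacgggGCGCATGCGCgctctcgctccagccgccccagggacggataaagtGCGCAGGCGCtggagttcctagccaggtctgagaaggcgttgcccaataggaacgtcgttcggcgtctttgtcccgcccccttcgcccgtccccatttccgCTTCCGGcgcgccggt

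The Uqcrh promoter holds an ETS match that begins at position -10, counted from the annotated start, and the Atp5e promoter one at -102. No match lies in the printed Cox7a2 window. Atp5h has an NRF1 match at -141 and an ETS match at -38. Atp5g2 has the full palindrome at -42. Cox6a1 has it at -162, a second NRF1 match at -117 and an ETS match at -16.

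Of the 41 genes, 31 were found in the promoter table, 3 of them with a pair of starts. The 31 include genes that were not measured, such as Uqcrfs1, Cox7b2 and Cox8b, so they are not a subset of the measured genes. In windows from 250 bases before to 50 after the start, the full palindrome was present in 4 of the 31 genes (12.9%), against 2.17% of the measured genes and 1.07% of all genes in the table. The looser form with any 2 bases, which includes the full one, was in 8 (25.8%, against 14.3% and 7.0%). The ETS letters were in 10 (32.3%, against 18.8% and 9.93%), and the YY1 letters in 3 (9.68%, against 8.49% and 7.28%). The median GC content was 56.5% in these promoters, 60.7% in those of measured genes and 52.7% in all. These matches describe the letters only, and binding was not measured. Genes with an ETS or NRF1 match stood on both sides of 0, with Atp5e at 0.31 and Atp5h at -0.18.

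Complex III and cytochrome c had 8 measured genes, 4 with higher and 4 with lower values in SIRT1 deletion pools, and a median log2 fold change of -0.0024. Uqcrh encodes the hinge protein, an acidic subunit at the docking site of cytochrome c1 and cytochrome c. Its log2 intensity was 12.93, 12.64 and 13.10 in control 1 to 3 and 13.12, 13.19 and 13.24 in SIRT1 deletion 1 to 3. The deletion pools lay close together above all controls, but SIRT1 deletion 1 (13.12) exceeded control 3 (13.10) by little. Control 2 stood below both other controls. The log2 fold change was 0.30 (limits 0.02 and 0.57, limma adjusted p = 0.543), and it was 0.17 without control 2 and 0.40 without control 3. Uqcr11, a small subunit of 1 transmembrane helix, had 12.15, 12.26 and 12.26 in control and 12.28, 12.32 and 12.36 in SIRT1 deletion pools. These groups were separate but close, with a log2 fold change of 0.10 (limits -0.09 and 0.29).

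The core proteins, homologues of processing peptidases that hold the complex together, had values of opposite sign. Uqcrc1 stood at 11.27, 11.65 and 11.38 in control and at 11.33, 11.12 and 11.40 in SIRT1 deletion pools. The groups overlapped, and the log2 fold change of -0.15 (limits -0.43 and 0.13) was -0.04 without control 2. Uqcrc2 had 12.68, 12.40 and 12.53 against 12.67, 12.67 and 12.55, also overlapping, with a log2 fold change of 0.09 (limits -0.13 and 0.32) that was 0.02 without control 2 and 0.16 without control 1. In Uqcrc1 control 2 was the highest of the 6 pools, and in Uqcrc2 it was the lowest.

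Uqcrq, which sits beside cytochrome b, had 7.77, 7.89 and 7.95 in control and 7.92, 7.66 and 7.65 in SIRT1 deletion pools. SIRT1 deletion 1 lay among the controls and the other 2 below them, and the log2 fold change was -0.13 (limits -0.37 and 0.11). Cyc1 encodes cytochrome c1, the heme protein that passes electrons to cytochrome c. It had 11.07, 10.94 and 10.98 against 10.97, 10.90 and 11.02, so the groups overlapped with a log2 fold change of -0.03 (limits -0.23 and 0.16). Uqcr10, a small membrane subunit, had 13.18, 13.27 and 13.23 in control and 13.26, 13.10 and 13.28 in SIRT1 deletion pools. Its groups overlapped at -0.02 (limits -0.22 and 0.19), and its second detected probe gave 0.02. The Rieske iron-sulfur protein gene Uqcrfs1 has 2 probes on the array, and neither was detected on any array, so it has no comparison.

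Cycs, the gene of somatic cytochrome c, had 11.41, 11.22 and 11.28 in control and 11.48, 11.21 and 11.26 in SIRT1 deletion pools by its brightest probe, a log2 fold change of 0.01 (limits -0.22 and 0.25). In each group pool 1 was the highest, and the groups overlapped. The other 2 detected probes of Cycs gave -0.19 and 0.14, of which the last was detected on 1 control and 2 SIRT1 deletion arrays. The mouse genome is known to hold many processed copies of Cycs, and whether these probes read them was not tested.

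**Figure D2:**
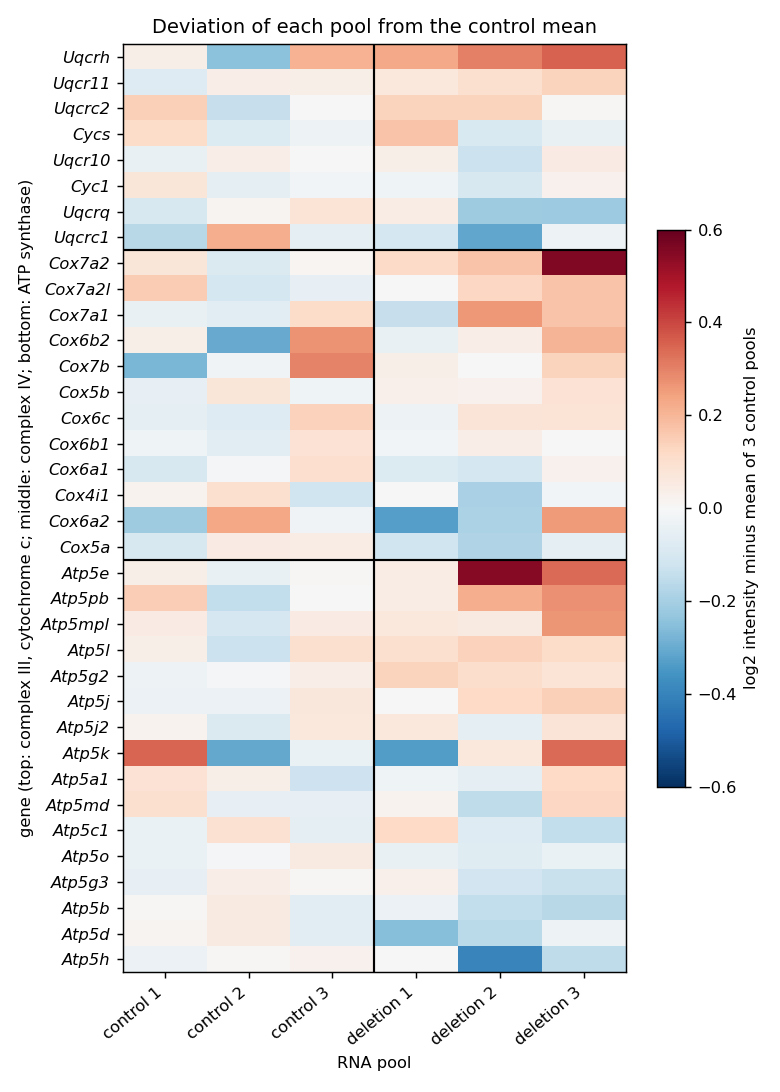
Log2 intensity of each gene in each pool minus the mean of the 3 control pools, with red for higher and blue for lower values on a scale from -0.6 to 0.6. Columns are the 6 pools, and horizontal lines separate complex III with cytochrome c, complex IV and ATP synthase. No block of genes is red or blue throughout the 3 SIRT1 deletion columns.

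Complex IV had 12 measured genes, 8 with higher and 4 with lower values, and a median log2 fold change of 0.04. With median scaling that median was -0.02. None reached an unadjusted p under 0.05. Cox7a2, the form of subunit 7a found in most tissues, came nearest, at 7.70, 7.54 and 7.64 in control and 7.74, 7.80 and 8.18 in SIRT1 deletion pools. The groups did not overlap, but SIRT1 deletion 1 exceeded control 1 by little and SIRT1 deletion 3 stood well above the rest. The log2 fold change was 0.28 (limits -0.01 and 0.57, limma adjusted p = 0.564), and it was 0.14 without SIRT1 deletion 3.

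The related genes of subunit 7a were measured too. Cox7a1, the form of heart and skeletal muscle, had 6.96, 6.93 and 7.11 against 6.86, 7.26 and 7.17, overlapping, with a log2 fold change of 0.10 (limits -0.17 and 0.37). Without SIRT1 deletion 2 and 3 its sign turned (-0.14). Cox7a2l, whose protein joins complexes III and IV into supercomplexes, had 11.00, 10.74 and 10.79 against 10.84, 10.97 and 11.01. Its groups also overlapped, with a log2 fold change of 0.10 (limits -0.13 and 0.33).

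Subunit 4 is regulatory and binds adenine nucleotides. Its common form Cox4i1 had 13.24, 13.32 and 13.11 in control and 13.23, 13.03 and 13.21 in SIRT1 deletion pools, overlapping, with a log2 fold change of -0.07 (limits -0.29 and 0.15). Cox4i2, the form known from lung and induced by low oxygen, was not detected on any array. Cox5a, next to subunit 4 on the matrix side, had 12.54, 12.69 and 12.68 against 12.52, 12.46 and 12.58. SIRT1 deletion 3 lay above control 1 and below the other 2 controls, and the log2 fold change was -0.12 (limits -0.32 and 0.08). Cox5b, a zinc-binding subunit, had 13.49, 13.61 and 13.51 against 13.57, 13.56 and 13.62, a log2 fold change of 0.05 (limits -0.14 and 0.24). Its second detected probe gave 0.16, with SIRT1 deletion 1 at 10.93, below all controls, and SIRT1 deletion 2 and 3 at 11.40 and 11.54, above them.

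For subunit 6a the common form and the heart and muscle form were both detected on all 6 arrays. Cox6a1 had 13.15, 13.24 and 13.35 in control and 13.16, 13.14 and 13.27 in SIRT1 deletion pools, a log2 fold change of -0.05 (limits -0.26 and 0.15). Cox6a2, which in the brain is known from parvalbumin interneurons, had 7.66, 8.10 and 7.85 against 7.54, 7.68 and 8.12. Both groups spread widely, and the log2 fold change was -0.09 (limits -0.47 and 0.29). Of 10 muscle marker genes on the array 3 were measured (Acta1, Myh6 and Mylpf), with a mean log2 intensity of 5.90 to 5.95 in control and 5.91 to 6.05 in SIRT1 deletion pools. Ckm, Myh1, Myh4, Myh7, Tnnt3, Tnni2 and Actn3 were not measured because too few arrays detected them.

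Cox6b1, which faces the intermembrane space, had 13.01, 12.97 and 13.12 in control and 13.02, 13.07 and 13.03 in SIRT1 deletion pools. These lay within the control range, with a log2 fold change of 0.01 (limits -0.19 and 0.20). Its testis form Cox6b2 was detected on all 6 arrays by 1 of its 2 probes, dimly, at 5.83, 5.50 and 6.07 in control and 5.75, 5.84 and 6.0 in SIRT1 deletion pools. The controls alone spanned the whole range of Cox6b2, and its log2 fold change was 0.07 (limits -0.26 and 0.40). Cox7b had 0.06 and Cox6c 0.04, both with intervals around 0. The testis forms Cox7b2 and Cox8c were detected on no array, and Cox8b, the form of muscle and brown fat, on 1 SIRT1 deletion array.

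**Figure D3:**
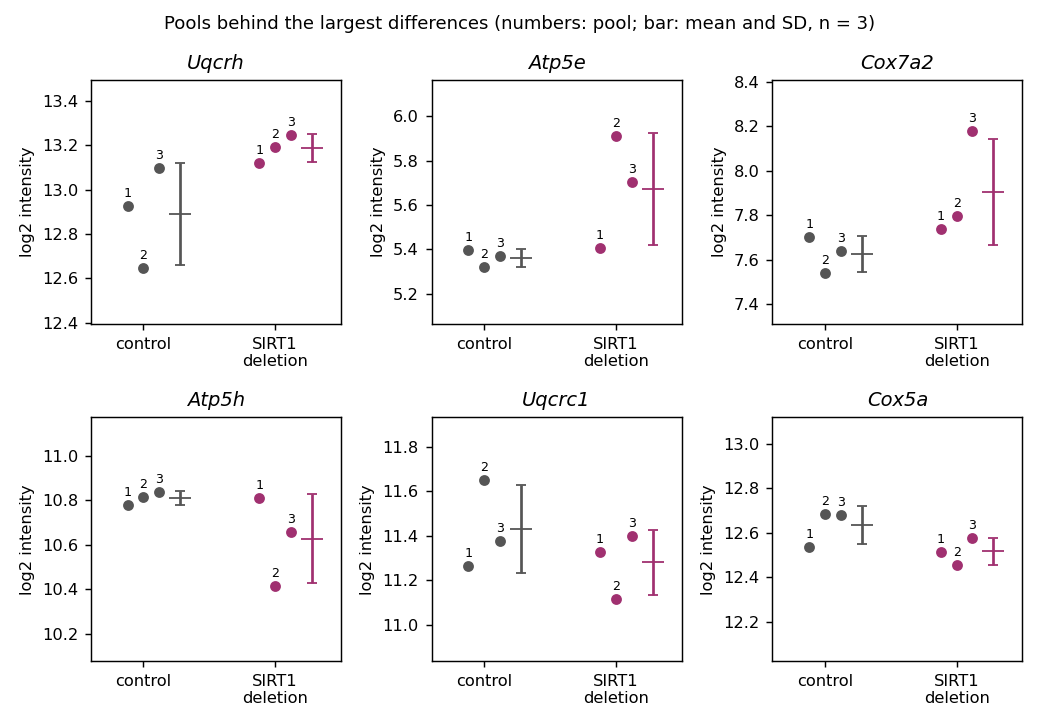
Log2 intensity in the 3 control (grey) and 3 SIRT1 deletion pools (purple) for Uqcrh, Atp5e, Cox7a2, Atp5h, Uqcrc1 and Cox5a, with the pool number above each point and a bar for the mean and SD (n = 3). Uqcrh, Atp5e and Cox7a2 separate the groups by narrow gaps, in Atp5e between control 1 (5.396) and SIRT1 deletion 1 (5.405). The groups of the other genes overlap.

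ATP synthase had 16 measured genes, all that were listed, with 9 higher and 7 lower values and a median log2 fold change of 0.02. In the catalytic head, the alpha and beta subunits form the hexamer that holds the active sites. Atp5a1 (alpha) had 8.70, 8.65 and 8.49 in control and 8.59, 8.56 and 8.74 in SIRT1 deletion pools, a log2 fold change of 0.01 (limits -0.21 and 0.23) with overlapping groups. Atp5b (beta) had 14.40, 14.45 and 14.34 against 14.36, 14.25 and 14.23. SIRT1 deletion 1 lay among the controls and the other 2 below, and the log2 fold change was -0.12 (limits -0.31 and 0.08). Without SIRT1 deletion 2 and 3 the value for Atp5b was -0.03.

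The gamma, delta and epsilon subunits make up the central stalk that turns inside the head. Atp5c1 (gamma) had a log2 fold change of -0.04 (limits -0.26 and 0.19). Atp5d (delta) had 10.88, 10.91 and 10.79 in control and 10.61, 10.70 and 10.83 in SIRT1 deletion pools, so that SIRT1 deletion 3 lay within the controls and the others below. Its log2 fold change was -0.15 (limits -0.36 and 0.06). Atp5e (epsilon) had 5.40, 5.32 and 5.37 against 5.40, 5.91 and 5.70. Control pools were tightly grouped, SIRT1 deletion 1 was level with control 1, and SIRT1 deletion 2 and 3 were clearly higher. The log2 fold change of Atp5e was 0.31 (limits 0.02 and 0.60, limma adjusted p = 0.543). Leaving out SIRT1 deletion 1 gave 0.44, leaving out SIRT1 deletion 2 gave 0.19, and 0.04 remained when pools 2 and 3 were both left out. The size of the value also depended on the background step. It was 0.089 without background correction, 0.12 in the authors' normalised table and 0.18 with an offset of 50, and in each of these the unadjusted p was above 0.05. The Atp5e probe was dim, with the detection floor of the arrays at 4.86 to 4.90.

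The peripheral stalk holds the head still. Atp5pb (subunit b) had 11.02, 10.72 and 10.87 in control and 10.91, 11.09 and 11.14 in SIRT1 deletion pools, overlapping, with a log2 fold change of 0.18 (limits -0.07 and 0.42). Its other detected probes gave 0.10 and 0.20, of which the last was detected on 1 control array and 3 SIRT1 deletion arrays. Atp5h (subunit d) had 10.78, 10.82 and 10.84 against 10.81, 10.41 and 10.66. SIRT1 deletion 1 lay within the narrow control range and SIRT1 deletion 2 and 3 below it. The log2 fold change of Atp5h was -0.18 (limits -0.44 and 0.07, limma adjusted p = 0.642), and it was -0.00085 without SIRT1 deletion 2 and 3. Atp5o, the oligomycin sensitivity conferring protein that joins stalk and head, had 13.21, 13.24 and 13.30 against 13.21, 13.18 and 13.21. All its deletion pools were below all controls by the brightest probe (-0.05, interval -0.23 to 0.13), but a second detected probe gave 0.07. Atp5j (coupling factor 6) had 12.96, 12.96 and 13.06 against 12.99, 13.11 and 13.13, overlapping, with a log2 fold change of 0.08 by its brightest probe and -0.04 by another.

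In the membrane part, Atp5g2 and Atp5g3 encode the same mature c subunit of the rotor with different import sequences. Atp5g2 had 9.70, 9.72 and 9.78 in control and 9.87, 9.84 and 9.82 in SIRT1 deletion pools, which did not overlap, with a log2 fold change of 0.11 (limits -0.07 and 0.29). Atp5g3 had 14.11, 14.20 and 14.17 against 14.19, 14.04 and 14.03, with SIRT1 deletion 1 among the controls and a log2 fold change of -0.07 (limits -0.27 and 0.12). The difference between both values was not tested.

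Subunits e and g take part in pairing ATP synthase into dimers at the cristae. Atp5l (subunit g) had 13.46, 13.30 and 13.52 against 13.52, 13.57 and 13.54, a log2 fold change of 0.12 (limits -0.09 and 0.32), and its second detected probe gave -0.05. Atp5k (subunit e) was dim and varied most of the 36 genes, from 5.03 in SIRT1 deletion 1 to 5.71 in control 1, with a log2 fold change of 0.02 (limits -0.44 and 0.49). Atp5j2 (subunit f) had 0.03. Of the small associated proteins, Atp5mpl had 12.65, 12.50 and 12.65 against 12.66, 12.65 and 12.86, separate by a narrow margin with a log2 fold change of 0.13 (limits -0.09 and 0.35). The value for Atp5mpl was 0.06 without SIRT1 deletion 3 and 0.07 with median scaling. Atp5md (also called DAPIT) had -0.0038.

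Detection by more than 1 probe allowed a check within genes. Among the 49 detected probes, 11 genes had 2 or 3. The probes of 6 genes shared a sign and those of 5 (Atp5j, Atp5l, Atp5o, Cycs and Uqcr10) did not, and the spread between probes of a gene exceeded 0.3 only for Cycs (0.34). In a fit of all 20402 detected probes no probe of these genes passed an adjusted p of 0.05 (0.049% of all probes did), and the lowest adjusted p among them was 0.572. At an unadjusted p under 0.05 there were 2 of the 49, against 8.47% of all detected probes. Uqcrh, Atp5e and Cox7a2 each have 1 probe, so their values have no such check.

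**Figure D4:**
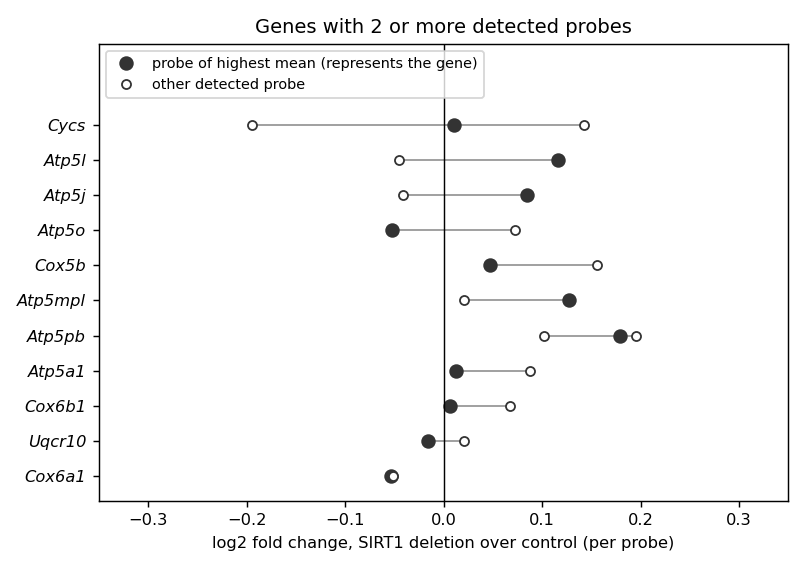
Log2 fold change per probe (x axis, SIRT1 deletion over control) for the 11 genes with 2 or more detected probes, with filled points for the probe that represents the gene and open points for the others. The probes of Cox6a1 lie at -0.05, while those of Cycs run from -0.19 to 0.14.

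The median range over the 6 pools was 0.27 for these genes against 0.37 for all features on the log2 scale, without matching for brightness. Among features with a mean log2 intensity of at least 10, the median within-group SD was 0.086 for these genes and 0.087 for all. Control 2 held the lowest value for 12 of the 36 genes (33.3%, against 18.1% of all features), among them Uqcrh, Cox7a2, Atp5e, Atp5pb, Atp5l and Atp5mpl. SIRT1 deletion 3 held the highest value for 13 (36.1%, against 17.6%). The lowest value fell in SIRT1 deletion 2 for 10 genes (27.8%, against 19.4% of all features), including Atp5h, Uqcrc1, Cox5a and Cox4i1. Averaged over the 36 genes, the deviation from the control mean was -0.0032, -0.0063 and 0.085 in SIRT1 deletion 1 to 3, while the controls themselves ran from -0.031 to 0.030, so only SIRT1 deletion 3 lay outside them. By group that deviation in SIRT1 deletion 1 to 3 was 0.068, -0.039 and 0.034 for complex III with cytochrome c, -0.048, 0.0060 and 0.13 for complex IV, and -0.0052, 0.00092 and 0.075 for ATP synthase.

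The first principal component of the 36 genes, with 47.6% of their variance, ran from control 2 (0.89) to SIRT1 deletion 2 and 3 (-0.57 and -0.67), with SIRT1 deletion 1 (0.28) beside the controls. The genes that weighed most towards SIRT1 deletion 2 and 3 were Atp5k, Atp5e, Uqcrh and Cox7a2, and towards control 2 they were Uqcrc1, Atp5h and Uqcrq. These are descriptions of 6 pools, and the same pools stood apart over all features.

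The deposited signals, before any scaling, were lower in SIRT1 deletion pools for 33 of the 36 genes and higher for 3 (8.33%, against 7.81% of all features). Their median log2 ratio was -0.15, beside -0.11 over all features and -0.19 over features with a mean log2 intensity of at least 10. The quantile normalisation takes this array-wide brightness out, so a change common to most of the transcripts could not be seen.

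**Figure D5:**
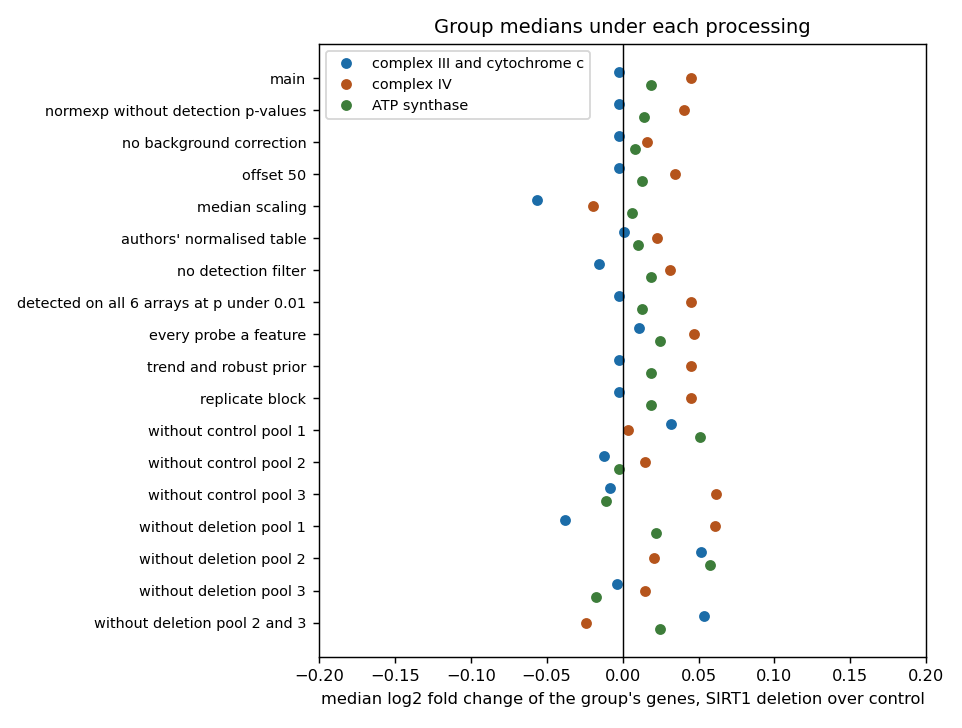
Median log2 fold change (x axis) of the measured genes of complex III with cytochrome c, complex IV and ATP synthase under the main processing (top row) and under each alternative, including each pool left out. All medians lie between -0.056 and 0.062.

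Other genes of oxidative phosphorylation were counted in the same way. Of 45 measured genes of complexes I and II or with an Nduf symbol, 0 passed an adjusted p of 0.05 in limma. The unadjusted p was under 0.05 for 2, both lower, or 4.44% against 8.82% of all features (4.21% lower). Their median log2 fold change was -0.01, with 19 higher and 26 lower. Ndufaf2, an assembly factor, had -0.24 and Ndufab1, the acyl carrier protein, had -0.20 (limma adjusted p = 0.558 each), while Ndufb4 had 0.12 and Ndufaf7 had 0.14.

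Assembly factors did not pass either. The 5 measured for complex III had a median of -0.03, with Ociad2 at 0.15, Uqcc1 at 0.12, Uqcc2 at -0.08 and Ttc19 at -0.07. The 23 for complex IV and its copper and heme delivery had a median of 0.01, 13 higher and 10 lower, with Cox19 at 0.16, Cmc2 at 0.19, Coa6 at -0.21 and Higd1a at -0.15. The 4 for ATP synthase had a median of -0.11, with Fmc1 at -0.22, Tmem70 at -0.12 and Atpaf2 at 0.09. No gene of these 3 lists had an unadjusted p under 0.05 (limma), and the lowest adjusted p was 0.582.

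Carriers of ADP, ATP and phosphate with the outer membrane channels had 5 measured genes and a median of -0.01, with Vdac3 at 0.26, Vdac1 at 0.02, Vdac2 at -0.12 and the phosphate carrier Slc25a3 at -0.06. Among 5 genes of cristae structure, Opa1, the inner membrane fusion protein, had a log2 fold change of 0.49 (limits 0.18 and 0.80, limma adjusted p = 0.427), Phb2 0.06, Immt -0.10 and Chchd6 -0.06. The value of Opa1 was 0.21 without background correction. Of 14 measured regulators 6 were higher and 8 lower (median -0.02). Gabpb1, a subunit of GABP, had 0.30 and Ppargc1a, which encodes PGC-1alpha, 0.21 (limma adjusted p = 0.545 and 0.662). Tfb2m and Pprc1 had -0.22 and -0.17 (limma adjusted p = 0.564 and 0.603). The Gabpb1 probe was dim, at no more than 6.07 in any pool, and its value was 0.092 without background correction. No symbol of a gene encoded in mitochondrial DNA was analysed here.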

How the data were processed

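The authors deposited, per the file headers, a mean bead signal (an intensity on a linear scale, neither background-subtracted nor scaled) and a detection p-value for each probe and array. A second deposited table of intensity values, quantile normalised as its equal columns show, served as an alternative. Per the labels' protocols, Trizol RNA was made into biotinylated cRNA. The sources used here do not name the scanner software.

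Of the probes, 34885 had 1 gene symbol, 18 had several and 10378 none. With limma 3.58.1 (R 4.3.3) the background was corrected by normexp with the detection p-values, given an offset of 16, quantile normalised and log2 transformed (neqc). Fold changes include that offset, which compresses dim probes. The 20402 probes detected (p under 0.05) on 3 or more of the 6 arrays were kept, and a gene was represented by its probe of highest mean. The 14221 features (11049 genes and 3172 unnamed probes) were compared with lmFit and eBayes. The fit was tested on simulated data with independent noise for each feature and array. No deviation shared by many features of a pool was simulated, so the test does not cover such deviations. The number of arrays limits the precision.

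Members and lists were chosen with earlier results of these data known. Genes given in every pool are the 3 of lowest p per group and direction, the core subunits, the isoform families and genes whose probes disagree by 0.3 or in sign. For other lists the 2 of lowest p per direction are given. Alternatives covered background, offset, scaling, filter, probe rule, variance prior, replicate block, threshold and pools left out. Same-numbered pools did not deviate together (correlations -0.052, -0.044 and -0.023 across features), so the numbers were not taken as pairs. Python 3.11.15 with matplotlib 3.10.9 drew the figures.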

Additional observations from a re-analysis of the deposited data

How the results depend on the processing

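No member gene passed an adjusted p of 0.05 under any of the 17 alternative processings or at 0.10, where the lowest adjusted p per processing ran from 0.171 (without SIRT1 deletion 1) to 0.955. All features that passed numbered 15, and 9 without a filter, 4 with detection at p under 0.01 on all 6 arrays, 29 with an intensity trend and robust prior, 10 under the replicate block and from 3 to 14 with pools left out, the fewest without SIRT1 deletion 2 and 3 (chosen after seeing the data). The 2 genes at an unadjusted p under 0.05 became 1 with median scaling and were 2 under the replicate block. With single pools left out they were from 0 to 4 of the 36 genes. There were 4 (3 higher and 1 lower) without SIRT1 deletion 1. There were 0 without control 1, control 2, SIRT1 deletion 2 or SIRT1 deletion 3. The count over all 14221 features moved too, from 1254 in the main processing to 1504 with median scaling and 1062 under the replicate block. It was 2009 without SIRT1 deletion 1, 1393 without control 1, 742 without control 2, 875 without SIRT1 deletion 2 and 956 without SIRT1 deletion 3. The median of complex III with cytochrome c was -0.056 with median scaling, 0.053 without SIRT1 deletion 2 and 3, and -0.038 to 0.052 with single pools left out, where that of complex IV ran over 0.0035 to 0.062 and that of ATP synthase over -0.017 to 0.058. For the 36 member genes, 567 of 611 values kept the sign of the main value and 44 did not, all 44 with median scaling or pools left out. Named genes of the other lists had a further 8 values of the other sign, and the genes given next include both kinds. With median scaling the sign turned for Atp5a1 (-0.013), Atp5j2 (-0.033), Atp5md (0.035), Cox5b (-0.019), Cox6b1 (-0.052), Cox6c (-0.020), Cycs (-0.038) and Vdac1 (-0.044). Without SIRT1 deletion 2 and 3 it turned for Atp5a1 (-0.026), Atp5c1 (0.12), Atp5g3 (0.030), Atp5j (-0.0042), Atp5k (-0.33), Atp5md (0.020), Atpaf2 (-0.024), Cox4i1 (0.0023), Cox6b1 (-0.016), Cox6b2 (-0.042), Cox6c (-0.032), Cox7a1 (-0.14), Cox7a2l (-0.00074), Ppargc1a (-0.00035), Uqcr10 (0.034), Uqcrq (0.046) and Vdac2 (0.0038). With single pools left out, the values passed through 0 for Atp5a1 (-0.048 to 0.057), Atp5c1 (-0.11 to 0.020), Atp5j2 (-0.014 to 0.070), Atp5k (-0.13 to 0.20), Atp5md (-0.067 to 0.071), Atpaf2 (-0.029 to 0.15), Cox6a2 (-0.26 to 0.032), Cox6b1 (-0.025 to 0.050), Cox6b2 (-0.084 to 0.20), Cox7b (-0.081 to 0.21), Cyc1 (-0.061 to 0.0041), Cycs (-0.070 to 0.066), Slc25a3 (-0.12 to 0.0058), Uqcr10 (-0.047 to 0.041) and Vdac1 (-0.0085 to 0.063). Named genes that kept 1 sign but moved by over 1.5 times under some alternative ran over these ranges: Atp5b (-0.16 to -0.034), Atp5d (-0.25 to -0.095), Atp5e (0.043 to 0.44), Atp5g2 (0.059 to 0.13), Atp5h (-0.27 to -0.00085), Atp5l (0.050 to 0.16), Atp5mpl (0.058 to 0.16), Atp5o (-0.12 to -0.026), Atp5pb (0.045 to 0.25), Chchd6 (-0.11 to -0.0030), Cmc2 (0.046 to 0.30), Cox5a (-0.18 to -0.088), Cox6a1 (-0.11 to -0.0031), Cox7a2 (0.11 to 0.36), Fmc1 (-0.31 to -0.10), Gabpb1 (0.092 to 0.41), Higd1a (-0.27 to -0.037), Immt (-0.15 to -0.015), Ndufab1 (-0.26 to -0.11), Ndufaf2 (-0.31 to -0.15), Ndufaf7 (0.026 to 0.20), Ndufb4 (0.044 to 0.16), Ociad2 (0.048 to 0.20), Opa1 (0.21 to 0.58), Phb2 (0.019 to 0.11), Tfb2m (-0.29 to -0.069), Tmem70 (-0.17 to -0.042), Ttc19 (-0.12 to -0.057), Uqcc1 (0.061 to 0.16), Uqcc2 (-0.13 to -0.047), Uqcr11 (0.059 to 0.12), Uqcrc1 (-0.23 to -0.040), Uqcrc2 (0.023 to 0.16), Uqcrh (0.17 to 0.40) and Vdac3 (0.11 to 0.34). The cause was not tested. Signal over background limits Atp5e, Atp5k, Atp5md, Cox7b, Cox6b2, Gabpb1, Cmc2 and Higd1a, whose log2 intensities did not exceed 6.09 in any pool.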
